A study of Homo sapiens with 24 samples.

Results

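Heat shock proteins and their partner chaperones were followed as 36 named genes, out of 60668 gene identifiers in the deposited tables, across 4 human lung cancer cell lines. The genes were picked by name as the cytosolic, inducible, mitochondrial and chaperonin members of the system. In A549 and H1299, cells overexpressing HEPACAM2, an immunoglobulin-superfamily adhesion protein, were set against control cells of the same line with a wild-type genotype label. In DMS454 and H1694, the labels give small cell lung cancer as the source, and cells titled CRISPR with a HEPACAM2 knockdown genotype were set against cells titled control with a wild-type label. Each of the 8 groups held 3 libraries, described by the submitters as independent biological replicates. The vector, the promoter driving HEPACAM2, the guides, and whether a line was 1 clone or a pool were not given in the sources used here.

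Molecular chaperones bind unfolded or partly folded proteins and use cycles of ATP binding and hydrolysis to let them fold, refold or reach a protease. The HSP70 proteins take up short hydrophobic stretches with the help of J-domain proteins, which bring substrates and speed ATP hydrolysis, and of HSP110 and BAG proteins, which release the nucleotide. HSP90, with a ring of co-chaperones, completes the folding of kinases, steroid receptors and other signalling proteins, while the TRiC ring folds actin and tubulin, and HSP60 with HSP10 folds proteins inside mitochondria. HSF1 is the transcription factor that switches many of these genes on after heat or other protein damage, by binding as a trimer to inverted repeats of the letters GAA, called heat shock elements. Cancer cells often carry high levels of these proteins without any heat shock.

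Because promoters of chaperone genes are a defining part of this system, those of 6 members on which the results turn are shown first: 5 that hold a heat shock element of the 3-unit form and, beside them, HSPA1A, the classic inducible gene. Sequences are RefSeq promoters on GRCh38.p14, from 250 bases before to 50 bases after an annotated start, written 5′ to 3′ on the strand of the gene, with the letters of every heat shock element match in capitals. The search used GAANNTTCNNGAA for 3 units, and GAANNTTC and TTCNNGAA for pairs of units, on both strands. A pair can lie inside a 3-unit match. The windows are CHORDC1 at chr11:90223000-90223299 (minus strand), HSPA8 at chr11:123062087-123062386 (minus), HSP90AA1 at chr14:102086995-102087294 (minus), HSPD1 at chr2:197499791-197500090 (minus), SERPINH1 at chr11:75562003-75562302 (plus) and HSPA1A at chr6:31815293-31815592 (plus).
CHORDC1: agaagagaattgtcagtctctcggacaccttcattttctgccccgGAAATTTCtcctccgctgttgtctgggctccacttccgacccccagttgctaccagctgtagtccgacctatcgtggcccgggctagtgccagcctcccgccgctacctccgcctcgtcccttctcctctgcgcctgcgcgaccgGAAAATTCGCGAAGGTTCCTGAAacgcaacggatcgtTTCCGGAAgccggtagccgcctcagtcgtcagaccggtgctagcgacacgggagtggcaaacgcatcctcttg
HSPA8: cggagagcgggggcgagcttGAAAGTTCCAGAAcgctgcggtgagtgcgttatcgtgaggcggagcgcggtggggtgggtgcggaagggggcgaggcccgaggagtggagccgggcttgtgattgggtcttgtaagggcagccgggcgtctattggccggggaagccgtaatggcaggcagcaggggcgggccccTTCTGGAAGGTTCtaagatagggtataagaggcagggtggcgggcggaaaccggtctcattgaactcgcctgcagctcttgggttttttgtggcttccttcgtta
HSP90AA1: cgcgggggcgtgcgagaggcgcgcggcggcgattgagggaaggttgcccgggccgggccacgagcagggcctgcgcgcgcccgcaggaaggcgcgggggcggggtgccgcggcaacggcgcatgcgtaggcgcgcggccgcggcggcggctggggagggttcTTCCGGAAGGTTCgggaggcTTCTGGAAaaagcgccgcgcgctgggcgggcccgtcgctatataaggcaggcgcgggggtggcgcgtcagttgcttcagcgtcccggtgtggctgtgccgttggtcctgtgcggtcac
HSPD1: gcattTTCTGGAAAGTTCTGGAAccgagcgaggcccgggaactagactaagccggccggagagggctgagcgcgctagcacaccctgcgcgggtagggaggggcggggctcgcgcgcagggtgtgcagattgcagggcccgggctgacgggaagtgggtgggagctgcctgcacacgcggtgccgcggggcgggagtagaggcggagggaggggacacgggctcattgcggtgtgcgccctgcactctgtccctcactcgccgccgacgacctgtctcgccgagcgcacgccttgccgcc
SERPINH1: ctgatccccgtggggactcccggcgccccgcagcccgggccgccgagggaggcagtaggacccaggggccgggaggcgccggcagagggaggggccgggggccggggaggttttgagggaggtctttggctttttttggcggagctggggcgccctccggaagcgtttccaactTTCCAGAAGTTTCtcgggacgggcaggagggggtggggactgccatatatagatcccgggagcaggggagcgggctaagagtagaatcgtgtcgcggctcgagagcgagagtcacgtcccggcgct
HSPA1A: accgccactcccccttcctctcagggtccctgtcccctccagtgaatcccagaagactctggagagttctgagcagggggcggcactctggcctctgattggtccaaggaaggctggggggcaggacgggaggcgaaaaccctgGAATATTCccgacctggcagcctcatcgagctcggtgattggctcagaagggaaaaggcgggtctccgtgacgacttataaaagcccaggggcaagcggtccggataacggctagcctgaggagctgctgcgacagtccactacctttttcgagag

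RefSeq promoters were matched for 33 of the 36 members, and none was matched for CRYAB, FKBP4 or HSF1. The 3-unit element was present in 8 of these 33 genes (24.2%), against 0.608% of all 27305 genes in the promoter table. Those genes were CHORDC1, DNAJA1, DNAJB6, HSP90AA1, HSP90AB1, HSPA8, HSPD1 and SERPINH1. At least 1 pair of units was present in 20 of 33 members (60.6%), against 16.2% of all genes. CHORDC1 held 3 matches of the 3-unit form, which overlap in 1 stretch, HSPA8 and HSPD1 2 each, and HSP90AA1 and SERPINH1 1 each. HSPA1A and HSPA1B each held 1 pair and no 3-unit match. These matches describe letters in the window and do not show that a factor was bound.

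Values are normalized counts, that is, read counts divided by a size factor of the library, as deposited by the authors. Reads per library numbered 16358272 to 29838960 for A549, 12704476 to 20332419 for H1299, 15652553 to 30241598 for DMS454 and 19682771 to 31770858 for H1694. In A549, HEPACAM2 had 6074, 5864 and 6084 in the OE libraries, against 1.1, 0 and 0 in the controls, and in H1299 it had 27257, 24999.9 and 23710.2 in the OE libraries, against 3.49, 3.07 and 2.08 in the controls. In DMS454, however, it had 11460, 11256 and 10844 in the CRISPR-labelled libraries, against 6430.1, 6543 and 6677 in the control-labelled ones, and in H1694 10124, 10545 and 10399 in the CRISPR-labelled libraries, against 3433, 3551 and 3688 in the control-labelled ones. HEPACAM2 mRNA was thus higher in the libraries labelled CRISPR with a knockdown genotype than in those labelled control, which goes against the label. In both lines the library codes carry G for libraries titled control and pL for those titled CRISPR. The authors' deposited contrast was titled control over titled CRISPR in these lines, but overexpressing over control in A549 and H1299. Whether the titles were exchanged was not tested. All directions in DMS454 and H1694 below are labelled CRISPR minus labelled control, and each would turn round if the titles were exchanged. The neuroendocrine markers (8 genes) all averaged at least 10 normalized counts in both groups of DMS454 and H1694, and their sum was 143650 to 149110 in CRISPR-labelled DMS454 libraries against 152020 to 153500 in control-labelled ones, with overlapping sums in H1694. Of 4 blood cell markers, PTPRC and CD3E were under 1 or had no row in every line. CD14, a monocyte marker, was lower in A549 OE, with 49.7, 40.3 and 42.8 in the OE libraries, against 69.3, 75.9 and 76.8 in the controls (log2 fold change -0.73, SE 0.18, adjusted p = 0.000809), and averaged 39.8 ± 7.73 in the CRISPR-labelled libraries and 38.8 ± 10.1 in the control-labelled ones in DMS454. In A549 the summed epithelial markers were lower, at 130890 to 136830 in OE libraries against 161570 to 170340 in controls, and all 5 of them fell. Of 5 fibroblast markers, COL1A1 rose in A549 (log2 fold change 3.03, SE 0.06, adjusted p = 7.31e-39), so that their sum was 2028 to 2176 in OE libraries against 262 to 285 in controls. COL1A2 and DCN, which also define fibroblasts, had no row in that table. In H1299 the epithelial sum was 14295 to 16354 in OE libraries against 16863 to 19595 in controls. Of the epithelial markers tested there, neither KRT18 (log2 fold change -0.21, adjusted p = 0.0739) nor KRT8 (-0.14, adjusted p = 0.388) passed the threshold. In DMS454 KRT19 was lower in CRISPR-labelled libraries (log2 fold change -0.53, SE 0.04, adjusted p = 5.95e-06). The other epithelial markers of DMS454 did not pass the threshold. The epithelial sum was lower in H1694, at 196 to 242 in CRISPR-labelled libraries against 298 to 323 in control-labelled ones. KRT19 (log2 fold change -1.36, adjusted p = 0.000131) and KRT18 (-0.45, adjusted p = 0.0265) were lower there. EPCAM, at 0.01, and CDH1, at 0.63, did not pass the threshold. KRT8 averaged under 10 in both groups and was not tested. H1694 also differed in the sum of 3 endothelial markers, at 3670 to 3806 in CRISPR-labelled libraries against 3119 to 3188 in control-labelled ones, in which CDH5 was higher (log2 fold change 0.25, SE 0.04, adjusted p = 0.000438). The H1694 fibroblast sum was 1087 to 1311 in CRISPR-labelled libraries against 1383 to 1460 in control-labelled ones, but the markers did not move together. COL1A2 was lower in CRISPR-labelled H1694 libraries (log2 fold change -0.34, SE 0.06, adjusted p = 0.000894). COL1A1 was higher there (log2 fold change 0.70, SE 0.15, adjusted p = 0.005). Mitochondrially encoded genes took 5.77% to 6.17% of the normalized counts in A549 OE libraries against 6.22% to 8.14% in controls, and 3.81% to 6.52% in H1299 OE libraries against 4.67% to 6.85% in controls. The part of these shifts in the results below was not tested.

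Some libraries stood apart from others of their group. In H1299, the level of a gene depended on its GC content differently in the libraries numbered 1: the slope per 10% of GC was -0.09 log2 units in OE 1 against 0.15 and 0.16 in OE 2 and 3, and 0.10 in control 1 against -0.15 and -0.17 in controls 2 and 3. In DMS454, the library CRISPR 3 was the highest of the 3 CRISPR-labelled libraries for 28 of 35 tested members and the highest of all 6 for 24. The same shares over all genes were not counted, so the place of CRISPR 3 is not shown to be particular to the members. Mitochondrially encoded genes took 5.42% of the normalized counts in CRISPR 3, against 3.99% and 3.14% in CRISPR 1 and 2, and 4.55% to 5.02% in the control-labelled libraries, and their part in the place of this library was not tested. Counts of members are given with and without these libraries, and the members whose call changed without them are named. CRISPR 3 was set apart by the values of the members themselves, so calls made without it are descriptive and give no independent support. In bulk RNA, a change in every cell and a change in some of the cells cannot be told apart.

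The chaperone genes moved in opposite directions in the lines that overexpress HEPACAM2. In A549, 28 of 35 tested members were higher in OE cells and 1, SERPINH1, was lower (limma on log2(normalized count + 1), adjusted p under 0.05), where 22.5% of all 16707 tested genes were higher and 21.9% lower. In H1299, 24 of 34 tested members were lower in OE cells and 1, again SERPINH1, was higher, where 15.3% of 16192 tested genes were lower and 13.5% higher. The changes were small in A549, with a median log2 fold change of 0.17 over the members and -0.00 over all genes, and larger in H1299, with -0.55 over the members and 0.00 over all genes. CRYAB was below the minimum level in A549 and had no row in H1299, where HSPB8 was below the minimum. The values of all 3 OE libraries lay above or below all 3 controls for 31 of the 35 members in A549, against 51.8% of all genes, and for 26 of the 34 in H1299, against 43.3%.

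Counts of changed members were smaller in the small cell lines. In DMS454, 4 of 35 tested members were higher (SERPINH1, DNAJB6, AHSA1 and CDC37) and 2 lower (HSPB8 and DNAJB4) in CRISPR-labelled libraries, against 9.15% and 9.72% of 18868 genes, so that the share of members was close to the background. In H1694, 12 of 35 members were lower in CRISPR-labelled libraries, against 8.9% of 17780 genes, and 2 were higher (HSPA9 and CCT2), against 8.73%. The median log2 fold change of the members was 0.03 in DMS454 and -0.03 in H1694, beside 0.00 and -0.00 over all genes. Groups did not overlap for 13 of 35 members in DMS454, against 36.6% of genes, or for 20 of 35 in H1694, against 35% of genes. CRYAB was below the minimum level in both small cell lines. Leaving out 1 library changed the H1694 counts: 5 members were lower without control-labelled library 1, where 5.29% of genes were, and 5 without control-labelled library 2, where 5.05% were. There were 6 without CRISPR-labelled library 2, where 5.49% of genes were lower, and 7 without control-labelled library 3, where 6.25% were. In each of these cases 1 member was higher, where 5.62%, 5.25%, 5.16% and 5.74% of genes were.

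**Figure D1:**
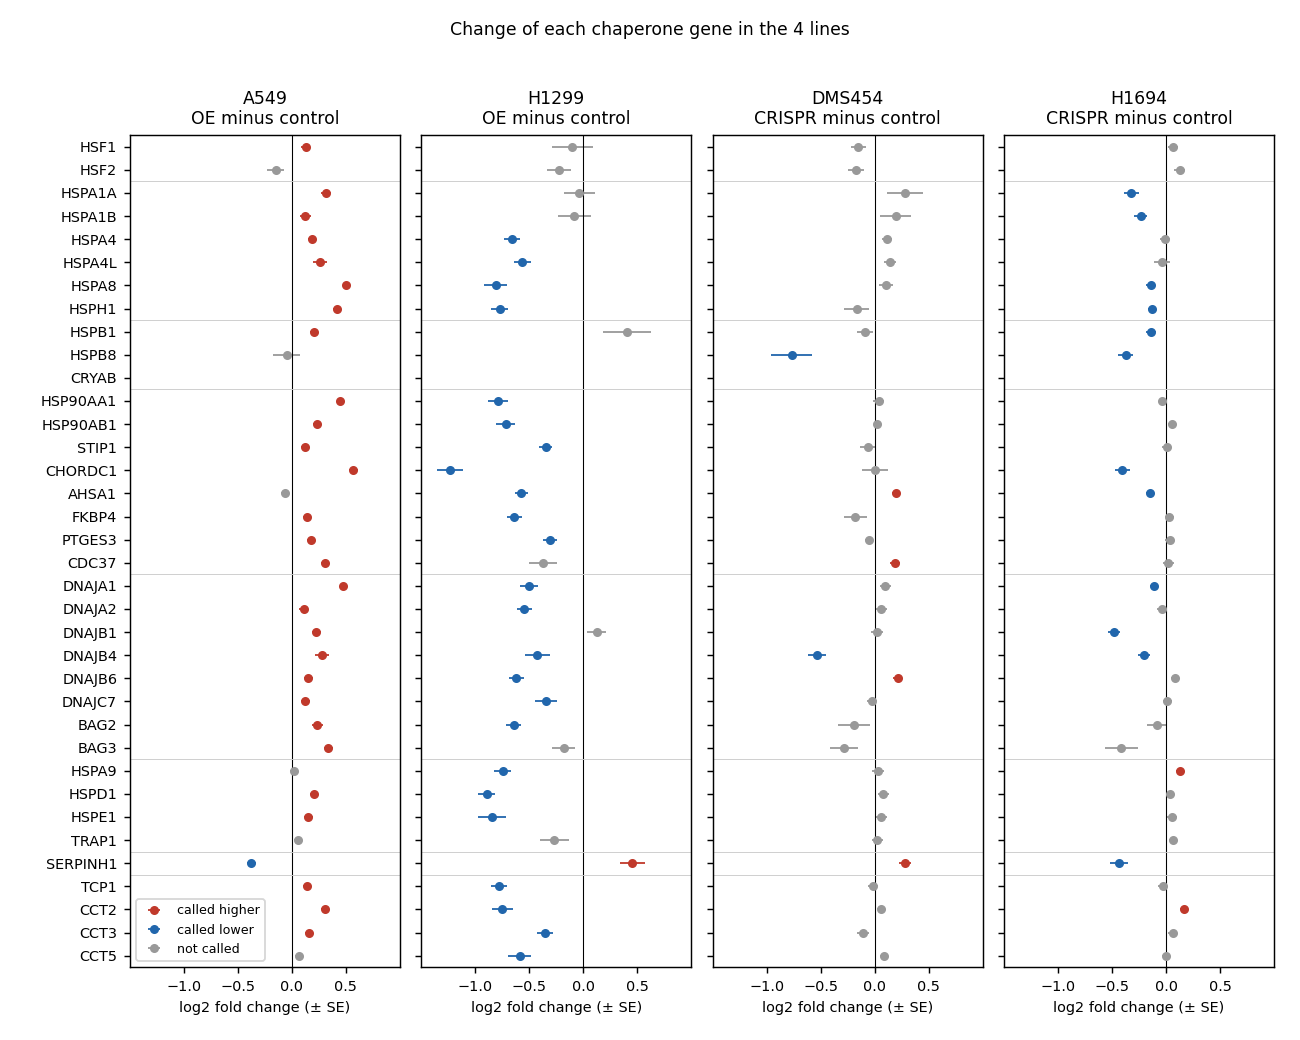
Log2 fold change of each member in the 4 lines on the horizontal axes, with bars of 1 standard error; members past the threshold are red (higher) or blue (lower) and the others grey, running down the page by role. In A549 most points lie right of 0 and in H1299 most lie left of it, with SERPINH1 on the other side in each.

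Read per member rather than per line, SERPINH1 and DNAJB4 passed the threshold in all 4 lines, 7 members in 3 lines, 21 in 2 lines, 3 in 1 line and 3 (HSF2, CRYAB and TRAP1) in none. The spread between replicates differed by line and by member. The median pooled SD of the members on the log2 scale was 0.05 in A549, 0.13 in H1299, 0.09 in DMS454 and 0.04 in H1694, against 0.10, 0.17, 0.13 and 0.10 over all tested genes of those lines. Members and all genes were not matched for level in this comparison. The pooled SD reached 0.37 for HSPB1 and 0.32 for HSF1 in H1299, and 0.30 for HSPB8 in DMS454.

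**Figure D2:**
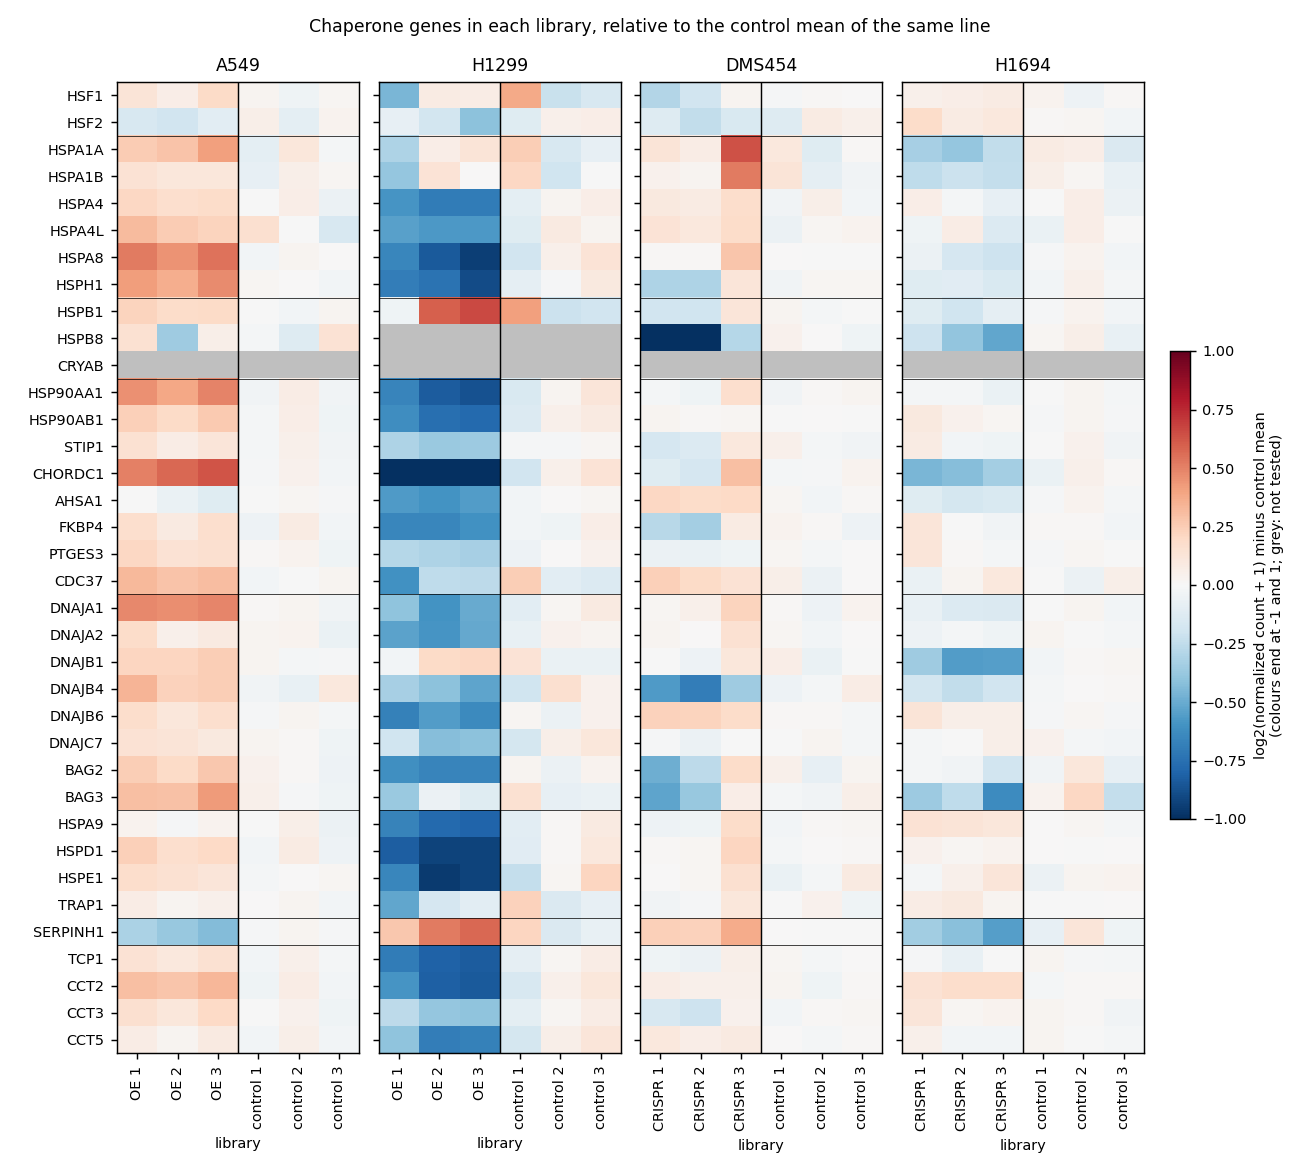
Log2 normalized count of each member (down the page, by role) in each of the 24 libraries (across), minus the mean of the controls of the same line. The A549 OE columns are mostly above their controls, the H1299 OE columns mostly below, and the DMS454 CRISPR 3 column differs from CRISPR 1 and 2.

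Of the listed transcription factors, HSF1 passed the threshold with all libraries in A549 only. HSF1 rose slightly in A549, with 2111, 2017 and 2203 in the OE libraries, against 1968, 1869.8 and 1956 in the controls (log2 fold change 0.13, SE 0.04, adjusted p = 0.0143). This call was lost without OE 3 (adjusted p = 0.107) or without control 2 (adjusted p = 0.0667). In H1299 HSF1 had 1846, 2685 and 2663 in the OE libraries, against 3292, 2174 and 2272 in the controls (log2 fold change -0.10, SE 0.19, adjusted p = 0.727). The H1299 groups overlapped, because OE 1 was the lowest and control 1 the highest of all 6 libraries. Without both libraries numbered 1 the H1299 log2 fold change of HSF1 was 0.27 (adjusted p = 6.67e-05), while after a correction of each library for GC content it was -0.29 (adjusted p = 0.000521), so its direction there was not settled. HSF1 had 2095, 2243 and 2611 in the CRISPR-labelled libraries, against 2540.3, 2581 and 2576 in the control-labelled ones in DMS454 (log2 fold change -0.15, SE 0.07, adjusted p = 0.146). Its CRISPR 3 value lay above all controls there and CRISPR 1 and 2 below them, and without CRISPR 3 the log2 fold change was -0.24 (adjusted p = 8.01e-06). In H1694, HSF1 had 1906, 1929.9 and 1946 in the CRISPR-labelled libraries, against 1891, 1782 and 1855 in the control-labelled ones, a difference of 0.07 on the log2 scale that did not pass the threshold.

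HSF2, a related factor that can form mixed trimers with HSF1, passed the threshold in no line. It had 310.0, 304 and 323 in the OE libraries, against 362, 324 and 356 in the controls in A549 (log2 fold change -0.15, SE 0.08, adjusted p = 0.123), and 655, 608 and 519 in the OE libraries, against 637, 717 and 724 in the controls in H1299 (log2 fold change -0.23, SE 0.11, adjusted p = 0.148). The groups overlapped in H1299 and were apart in A549. In DMS454 it had 614, 565 and 601 in the CRISPR-labelled libraries, against 612, 709 and 692 in the control-labelled ones (log2 fold change -0.17, SE 0.07, adjusted p = 0.124), and in H1694 951, 887 and 904 in the CRISPR-labelled libraries, against 844, 848 and 823 in the control-labelled ones (log2 fold change 0.12, SE 0.05, adjusted p = 0.132). HSF2 was lower in CRISPR-labelled DMS454 without library CRISPR 3, at -0.19 (adjusted p = 0.0405), and lower in H1299 OE without both libraries numbered 1, at -0.36 (adjusted p = 0.000878). After the GC correction the H1299 value did not pass the threshold, at -0.15 (adjusted p = 0.115).

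Among the HSP70 and HSP110 genes, all 6 rose in A549 and 4 of 6 fell in H1299. HSPA8, the constitutive cytosolic HSP70 and the most abundant of the 6 in A549, had 29347, 28004 and 29902 in the OE libraries, against 20099.6, 20913 and 20537 in the controls (log2 fold change 0.50, SE 0.03, adjusted p = 1.06e-17). In H1299 it had 32569, 28620.2 and 26732 in the OE libraries, against 44857, 53163 and 56488 in the controls (log2 fold change -0.81, SE 0.11, adjusted p = 0.000984). In both lines the groups were clear of each other, in opposite directions. HSPA8 did not pass the threshold in DMS454, with 22563, 22510.5 and 27045 in the CRISPR-labelled libraries, against 22337, 22322 and 22307 in the control-labelled ones (log2 fold change 0.10, SE 0.06, adjusted p = 0.313), where CRISPR 1 and 2 were only just above the controls and the log2 fold change without CRISPR 3 was 0.01 (adjusted p = 0.665). It fell in H1694, with 28932, 26844 and 26151 in the CRISPR-labelled libraries, against 29956, 30837 and 29657 in the control-labelled ones (log2 fold change -0.14, SE 0.04, adjusted p = 0.022). The H1694 call was lost without any 1 library other than CRISPR 1, with adjusted p between 0.0576 and 0.131. HSPA8 has 17 annotated pseudogenes, which can take or lend reads.

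HSPH1, the main HSP110 nucleotide exchange factor, followed the same course. In A549 it had 4211, 4051 and 4363 in the OE libraries, against 3195, 3155 and 3087 in the controls (log2 fold change 0.42, SE 0.04, adjusted p = 9.24e-13), and in H1299 2866, 2771 and 2492 in the OE libraries, against 4356, 4604 and 4955 in the controls (log2 fold change -0.78, SE 0.08, adjusted p = 0.000375). Neither pair of groups overlapped. In DMS454 HSPH1 had 2415, 2411 and 3245 in the CRISPR-labelled libraries, against 2912, 3029 and 3034 in the control-labelled ones (log2 fold change -0.17, SE 0.11, adjusted p = 0.357). There CRISPR 1 and 2 lay well below the controls and CRISPR 3 above them, and without CRISPR 3 it was lower, at -0.31 (adjusted p = 2.7e-08). In H1694 it fell, with 3905, 3937 and 3819 in the CRISPR-labelled libraries, against 4168, 4416 and 4188 in the control-labelled ones (log2 fold change -0.13, SE 0.04, adjusted p = 0.0369). As for HSPA8, the H1694 call was lost without any 1 library other than CRISPR 1, with adjusted p between 0.0758 and 0.201. HSPA4 and HSPA4L, the other members of the HSP110 branch, rose by 0.19 and 0.26 in A549, had log2 fold changes of -0.66 and -0.56 in H1299, where both fell, and passed the threshold in neither small cell line.

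HSPA1A and HSPA1B, the stress-inducible HSP70 genes, encode the same protein from neighbouring copies, and 72.6% of the 50-base windows of the HSPA1A transcript were also present in HSPA1B. Reads can therefore be split between them, and their separate values are uncertain. HSPA1A had 1694.5, 1729 and 1892 in the OE libraries, against 1331, 1534 and 1405 in the controls in A549 (log2 fold change 0.32, SE 0.05, adjusted p = 1.38e-06). HSPA1B had 1089.8, 1069.9 and 1068 in the OE libraries, against 934, 1027 and 1003 in the controls (log2 fold change 0.12, SE 0.05, adjusted p = 0.0449), and both thus rose in A549 with no overlap of the groups. The HSPA1B call there was lost without any 1 library other than control 2, with adjusted p between 0.0511 and 0.262. In H1299 the pair did not move with the other HSP70 genes. HSPA1A had 550.4, 714 and 743 in the OE libraries, against 805, 609 and 642 in the controls (log2 fold change -0.04, SE 0.14, adjusted p = 0.871), and HSPA1B 387, 556 and 507 in the OE libraries, against 584, 441 and 506 in the controls (log2 fold change -0.08, SE 0.15, adjusted p = 0.709). The OE 1 value was again the lowest and the control 1 value the highest for both genes, and without both libraries numbered 1 HSPA1A was higher in OE, at 0.22 (adjusted p = 0.0161), and HSPA1B was at 0.17 (adjusted p = 0.121). After the GC correction both lay below 0, HSPA1A at -0.17 (adjusted p = 0.0582) and HSPA1B at -0.20 (adjusted p = 0.084), so the direction of the pair was not settled either.

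In DMS454, HSPA1A had 2071, 1996 and 2949.6 in the CRISPR-labelled libraries, against 2039, 1746 and 1913 in the control-labelled ones (log2 fold change 0.28, SE 0.16, adjusted p = 0.306), and HSPA1B 1967, 1945 and 2734 in the CRISPR-labelled libraries, against 2085, 1795 and 1862 in the control-labelled ones (log2 fold change 0.20, SE 0.14, adjusted p = 0.409). CRISPR 3 was far above the other 5 libraries for both, and without it HSPA1A was at 0.10 (adjusted p = 0.122) and HSPA1B at 0.03 (adjusted p = 0.635). In H1694 both fell: HSPA1A had 672, 644 and 710.5 in the CRISPR-labelled libraries, against 893, 884 and 763 in the control-labelled ones (log2 fold change -0.32, SE 0.07, adjusted p = 0.00428), and HSPA1B 667, 683 and 674 in the CRISPR-labelled libraries, against 825, 804 and 754 in the control-labelled ones (log2 fold change -0.23, SE 0.06, adjusted p = 0.0118). No CRISPR-labelled library reached the lowest control-labelled one for either gene in that line, and the HSPA1B call was lost there without control-labelled library 1 or 2.

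**Figure D3:**
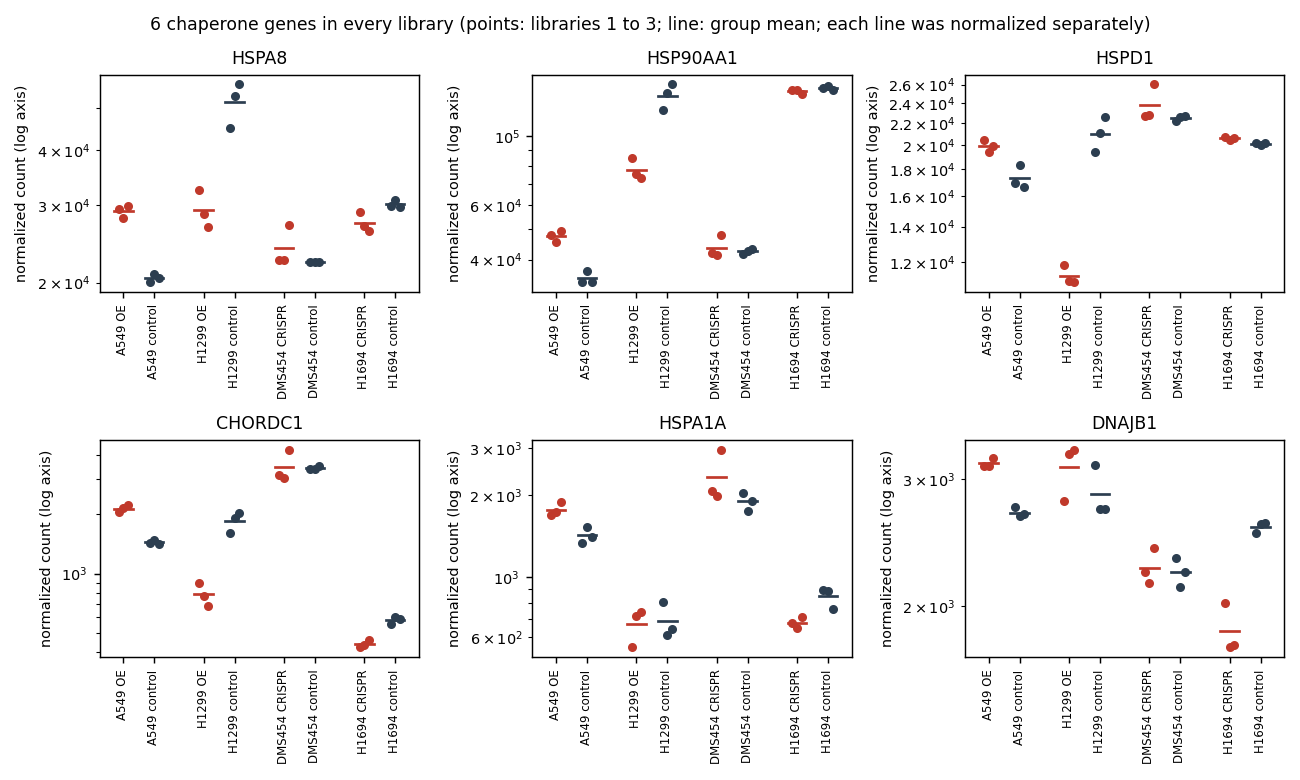
Normalized counts of 6 chaperone genes in every library, OE or CRISPR-labelled libraries left of the controls in each line, with a line at the group mean; each line was normalized separately. HSPA8, HSP90AA1 and CHORDC1 lie above the controls in A549 and below them in H1299.

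The small heat shock proteins, which hold unfolding proteins without using ATP, were uneven. HSPB1 (HSP27) averaged 7673 ± 93.8 in the OE libraries and 6677 ± 135 in the controls in A549 (SD, n = 3 each), where it rose by 0.20 on the log2 scale. In H1299 it averaged 3265 ± 809 in the OE libraries and 2462 ± 645 in the controls (SD, n = 3 each), a log2 fold change of 0.40 (adjusted p = 0.212) with overlapping groups. HSPB1 was higher in H1299 OE without both libraries numbered 1, at 0.83 (adjusted p = 2.45e-12), and after the GC correction, at 0.22 (adjusted p = 0.0105). It did not pass the threshold in DMS454 and fell in H1694, with log2 fold changes of -0.09 and -0.14. Without CRISPR 3 it was lower in DMS454, at -0.20 (adjusted p = 2.53e-05), and the H1694 call was lost without CRISPR-labelled library 2 or any 1 control-labelled library, with adjusted p between 0.0768 and 0.188.

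HSPB8, which works with BAG3 in routing proteins to autophagy, had the largest change of any member in DMS454, with 293, 289 and 483 in the CRISPR-labelled libraries, against 606, 588 and 570.1 in the control-labelled ones (log2 fold change -0.77, SE 0.19, adjusted p = 0.0292). Libraries CRISPR 1 and 2 were close to each other and CRISPR 3 lay between them and the controls. The call was lost without any 1 library other than CRISPR 3, with adjusted p between 0.0694 and 0.0885, and the count of lower members was then 1, where 5.93% and 6.8% of genes were lower without CRISPR-labelled libraries 1 and 2, and 6.1%, 5.37% and 5.45% without control-labelled libraries 1, 2 and 3. In H1694 HSPB8 also fell, with 1000.4, 878 and 807 in the CRISPR-labelled libraries, against 1169, 1205 and 1096 in the control-labelled ones (log2 fold change -0.37, SE 0.07, adjusted p = 0.00236). It did not pass the threshold in A549, with 181, 127 and 170.0 in the OE libraries, against 161, 149 and 181 in the controls. In H1299 it reached at most 7.85 normalized counts in any library. CRYAB (alpha-B crystallin) reached 9.20 in a control of A549, 2.72 in a control-labelled library of DMS454 and 1.21 in one of H1694, and was not tested.

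HSP90 and its co-chaperones rose in A549 for 7 of 8 members and fell in H1299 for 7 of 8. HSP90AA1, the inducible cytosolic HSP90, had 47874, 45690.5 and 49267 in the OE libraries, against 34012, 36776 and 33983 in the controls in A549 (log2 fold change 0.45, SE 0.03, adjusted p = 3.73e-15). In H1299 it had 84849, 75233 and 73134 in the OE libraries, against 120638, 136692 and 146145 in the controls (log2 fold change -0.79, SE 0.10, adjusted p = 0.000666). The groups were apart in both lines. HSP90AA1 had 42052, 41254 and 47919 in the CRISPR-labelled libraries, against 41619, 42798 and 43263 in the control-labelled ones in DMS454 (log2 fold change 0.04, SE 0.05, adjusted p = 0.663), and 140324, 140529 and 136066 in the CRISPR-labelled libraries, against 142380, 144894 and 140395 in the control-labelled ones in H1694 (log2 fold change -0.04, SE 0.03, adjusted p = 0.474), with overlapping groups in both. Without CRISPR 3 the DMS454 log2 fold change was -0.03 (adjusted p = 0.245). HSP90AB1, the constitutive form, rose by 0.23 in A549 and had a log2 fold change of -0.72 in H1299, where it fell, and 0.02 and 0.05 in DMS454 and H1694, where it did not pass the threshold.

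CHORDC1, an HSP90-binding co-chaperone whose promoter holds 3 overlapping matches of the 3-unit form in a single stretch, had the largest change of all members in both overexpressing lines. In A549 it had 2041, 2142 and 2226 in the OE libraries, against 1424, 1479 and 1414 in the controls (log2 fold change 0.57, SE 0.04, adjusted p = 4.28e-15). In H1299 it had 900.0, 771 and 685 in the OE libraries, against 1608, 1909.6 and 2026 in the controls (log2 fold change -1.24, SE 0.12, adjusted p = 0.000266), and its change was among the largest 3.42% of all genes tested there. Every OE library was far below every control in H1299, and every one was above every control in A549. In H1694 CHORDC1 fell, with 424, 432 and 459.8 in the CRISPR-labelled libraries, against 557, 602 and 587 in the control-labelled ones (log2 fold change -0.41, SE 0.07, adjusted p = 0.000661). It had 3153, 3065 and 4245 in the CRISPR-labelled libraries, against 3389, 3407 and 3522 in the control-labelled ones in DMS454 (log2 fold change 0.00, SE 0.12, adjusted p = 0.985). CRISPR 1 and 2 were below the controls there and CRISPR 3 above them, and without CRISPR 3 the log2 fold change was -0.15 (adjusted p = 0.00161).

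The other HSP90 partners changed less than CHORDC1 in A549, H1299 and H1694, but not in DMS454. AHSA1, the activator of HSP90's ATPase, was the exception in A549, at -0.07 (adjusted p = 0.169), and fell in H1299 by 0.57. It rose in DMS454, with 3880.4, 3812 and 3866 in the CRISPR-labelled libraries, against 3404, 3292 and 3391 in the control-labelled ones (log2 fold change 0.20, SE 0.04, adjusted p = 0.00506), and fell in H1694 by 0.15, a call lost without CRISPR-labelled library 2 or control-labelled library 1 or 2. CDC37, which brings kinases to HSP90, rose in A549 by 0.31 and in DMS454, with 2882, 2785 and 2709 in the CRISPR-labelled libraries, against 2540.3, 2352 and 2444 in the control-labelled ones (log2 fold change 0.19, SE 0.05, adjusted p = 0.0138). The DMS454 call was lost without CRISPR-labelled library 1 or control-labelled library 2 or 3, with adjusted p between 0.0635 and 0.0898. In H1299 all OE values of CDC37 were below the controls without passing the threshold, at -0.37 (adjusted p = 0.0623). It was lower there without both libraries numbered 1, at -0.14 (adjusted p = 0.0064), and after the GC correction, at -0.51 (adjusted p = 1.91e-06). STIP1, which bridges HSP70 and HSP90, FKBP4, a peptidyl-prolyl isomerase, and PTGES3 (p23) rose by 0.12, 0.14 and 0.17 in A549 and fell by 0.35, 0.64 and 0.31 in H1299, and none of them passed the threshold in DMS454 or H1694. The STIP1 call in A549 was lost without OE 1 (adjusted p = 0.0526), and the PTGES3 call in H1299 without control 3 (adjusted p = 0.0519).

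The J-domain and BAG genes, 8 in number, all rose in A549, and 6 fell in H1299. DNAJA1, a J-domain partner of HSPA8, had 7693, 7612 and 7720.5 in the OE libraries, against 5561, 5612 and 5372 in the controls in A549 (log2 fold change 0.48, SE 0.04, adjusted p = 9.83e-16). It fell in H1299 and H1694, by 0.50 and 0.12 on the log2 scale. The H1694 call was lost without any 1 library other than CRISPR 1, with adjusted p between 0.0825 and 0.197. DNAJB1 (HSP40), the inducible J-domain protein, had 3129, 3127 and 3203 in the OE libraries, against 2742, 2663 and 2678 in the controls in A549 (log2 fold change 0.23, SE 0.04, adjusted p = 4e-06). In H1299 it had 2799, 3251 and 3294 in the OE libraries, against 3135, 2721 and 2723 in the controls (log2 fold change 0.12, SE 0.09, adjusted p = 0.351), with overlap. Without both libraries numbered 1 it was higher in OE, at 0.27 (adjusted p = 2.93e-05), but after the GC correction it did not pass, at 0.10 (adjusted p = 0.216). DNAJB1 had 2226, 2149 and 2403 in the CRISPR-labelled libraries, against 2333, 2125 and 2226 in the control-labelled ones in DMS454 (log2 fold change 0.02, SE 0.05, adjusted p = 0.842), where the groups overlapped. In H1694 it had the largest change of any member, with 2019, 1754 and 1763 in the CRISPR-labelled libraries, against 2527, 2595 and 2609.8 in the control-labelled ones (log2 fold change -0.48, SE 0.05, adjusted p = 1.33e-05), and the groups did not overlap.

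DNAJB4, a further J-domain partner of HSP70, passed the threshold in every line. It rose in A549 by 0.28 and fell in H1299 by 0.43. In DMS454 it had 547, 504 and 635 in the CRISPR-labelled libraries, against 783, 802 and 855 in the control-labelled ones (log2 fold change -0.54, SE 0.08, adjusted p = 0.000907), and it fell in H1694 by 0.21. The H1299 call was lost without OE 2, OE 3, control 2 or control 3, with adjusted p between 0.0703 and 0.101. The H1694 call was lost without CRISPR-labelled library 2 or any 1 control-labelled library, with adjusted p between 0.0572 and 0.0874, and with DESeq2 (adjusted p = 0.0625). No CRISPR-labelled library reached a control-labelled one in either small cell line. GIPC2 overlaps DNAJB4 on the same strand, so reads of the shared part cannot be assigned to 1 of them with certainty. DNAJB6, a suppressor of protein aggregation, had 3407, 3376 and 3289 in the CRISPR-labelled libraries, against 2915, 2926 and 2852 in the control-labelled ones in DMS454 (log2 fold change 0.21, SE 0.04, adjusted p = 0.00384), rose by 0.15 in A549 and fell by 0.62 in H1299.

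DNAJA2 and DNAJC7, J-domain proteins of the cytosol, rose by 0.11 and 0.12 in A549 and fell by 0.55 and 0.35 in H1299. Both A549 calls were lost without OE 1 or control 3, and the DNAJC7 call in H1299 without OE 2, OE 3, control 2 or control 3. BAG2, which inhibits the ubiquitin ligase CHIP, rose by 0.24 in A549 and fell by 0.64 in H1299. BAG3, which links HSP70 to small heat shock proteins, rose by 0.34 in A549 and had a log2 fold change of -0.18 (adjusted p = 0.224) in H1299. That value was -0.01 (adjusted p = 0.863) without both libraries numbered 1 and -0.27 (adjusted p = 0.00155) after the GC correction. Both BAG genes were lower in DMS454 without CRISPR 3, at -0.37 (adjusted p = 0.000521) for BAG2 and -0.45 (adjusted p = 1.56e-05) for BAG3. In H1694 BAG3 averaged 91.6 ± 12.2 in the CRISPR-labelled libraries and 123 ± 18.7 in the control-labelled ones (SD, n = 3 each), with no overlap of the groups and a log2 fold change of -0.41 (adjusted p = 0.0801).

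Of the 4 mitochondrial chaperones, HSPD1, HSPE1 and HSPA9 fell in H1299 and TRAP1 did not pass the threshold. HSPD1 (HSP60) had 11830.3, 11029.5 and 11009.9 in the OE libraries, against 19365, 21081 and 22534 in the controls in H1299 (log2 fold change -0.89, SE 0.08, adjusted p = 0.000173). HSPE1 (HSP10), its lid, had 1305, 1054 and 1081 in the OE libraries, against 1741, 2080.3 and 2385 in the controls (log2 fold change -0.85, SE 0.13, adjusted p = 0.0019). All OE libraries were below all controls for both. HSPD1 and HSPE1 lie head to head on chromosome 2 and moved by nearly the same amount in each line, 0.20 and 0.15 in A549, where both rose, and at most 0.08 in the small cell lines, where neither passed the threshold. HSPE1 has 26 annotated pseudogenes and HSPD1 17, and HSPE1-MOB4 overlaps HSPE1 on its strand. HSPA9 (mortalin), the HSP70 of the mitochondrial matrix, fell by 0.75 in H1299, rose by 0.13 in H1694, a call lost without CRISPR-labelled library 2 or any 1 control-labelled library, and did not pass the threshold in A549, at 0.02. TRAP1, the mitochondrial HSP90, had log2 fold changes of 0.05 in A549, -0.27 in H1299, 0.03 in DMS454 and 0.07 in H1694, none of which passed the threshold. The H1299 value was -0.02 (adjusted p = 0.708) without both libraries numbered 1 and -0.34 (adjusted p = 0.0028) after the GC correction.

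The TRiC subunits TCP1, CCT2, CCT3 and CCT5 all fell in H1299, by 0.35 to 0.78 on the log2 scale, and the CCT3 call was lost without control 3 (adjusted p = 0.0527). TCP1 had 10550.3, 9807 and 9649 in the OE libraries, against 16122, 17360.1 and 18014 in the controls (log2 fold change -0.78, SE 0.07, adjusted p = 0.000234), with no overlap of the groups. In A549 TCP1, CCT2 and CCT3 rose by 0.14, 0.31 and 0.16, and CCT5 had a log2 fold change of 0.06 (adjusted p = 0.156). CCT2 also rose in H1694, by 0.17.

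SERPINH1 (HSP47), a chaperone of procollagen in the endoplasmic reticulum, ran against the cytosolic members in both overexpressing lines. In A549 it had 3042, 2907 and 2808 in the OE libraries, against 3746, 3857 and 3750.4 in the controls (log2 fold change -0.38, SE 0.04, adjusted p = 3.98e-11), and in H1299 1665, 1980.0 and 2060.3 in the OE libraries, against 1602, 1253 and 1317 in the controls (log2 fold change 0.45, SE 0.12, adjusted p = 0.0184). The groups did not overlap in either line. SERPINH1 no longer passed the threshold in H1299 when OE 2, OE 3, control 2 or control 3 was left out. COL1A1, a client of SERPINH1, rose in A549 as given above while SERPINH1 fell. In DMS454 SERPINH1 had 1233, 1224 and 1352 in the CRISPR-labelled libraries, against 1044, 1042 and 1043 in the control-labelled ones (log2 fold change 0.28, SE 0.06, adjusted p = 0.00433), and in H1694 364, 347 and 315 in the CRISPR-labelled libraries, against 437, 505 and 451 in the control-labelled ones (log2 fold change -0.44, SE 0.08, adjusted p = 0.00172). It was thus higher in CRISPR-labelled DMS454 and lower in CRISPR-labelled H1694, again without overlap.

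The GC content of the members differed between those that fell in H1299 and those that did not. The median transcript GC was 44.4% for the 24 that fell, 57.8% for the 10 others and 48.1% over all tested genes. With each library corrected for its trend over GC content, 28 members were lower and 2 higher in H1299, where 21.9% of genes were lower and 20.1% higher. Without both libraries numbered 1, 26 were lower and 5 higher (HSPB1, HSF1, DNAJB1, HSPA1A and SERPINH1), where 27.9% of genes were lower and 27% higher. All 25 members called with all libraries were also called under each of these. The medians of the members over single libraries, relative to the mean of the controls, were -0.54, -0.58 and -0.54 in the H1299 OE libraries, against -0.09, 0.01 and 0.05 in the controls.

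In DMS454, the counts changed more without library CRISPR 3, when 13 members were lower and 5 higher, where 18.2% of genes were lower and 16.7% higher. The members then lower were HSF1, HSF2, HSPH1, HSPB1, STIP1, CHORDC1, FKBP4, PTGES3, BAG2, BAG3 and CCT3, besides HSPB8 and DNAJB4, and CCT5 was then higher, at 0.09 (adjusted p = 0.0078), besides SERPINH1, DNAJB6, AHSA1 and CDC37. With all 6 libraries, none of the 11 named first, nor CCT5, passed the threshold. Over all genes, 9.72% were lower and 9.15% higher with all 6 libraries, so calls without CRISPR 3 rose over all genes too. Because CRISPR 3 was set apart by these same members, the calls without it are descriptive only. In that line, CRISPR 1 and 2 lay below all controls for 14 of 35 members. The share of all genes with this pattern was not counted, so it is not shown to be particular to the members. The median of the members relative to the controls was -0.02 and -0.04 in CRISPR 1 and 2, and 0.12 in CRISPR 3.

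The difference between lines was tested directly, as the effect of overexpression in A549 minus that in H1299. It passed the threshold for 27 of 34 members, where 41.2% of 14578 genes did, and was above 0 for 26 of them, where 22.7% of genes were. It was largest for CHORDC1, at 1.80 (SE 0.14, adjusted p = 3.07e-07), followed by HSPA8, at 1.31 (SE 0.12, adjusted p = 1.26e-06), HSP90AA1, at 1.24 (SE 0.10, adjusted p = 7.67e-07), and HSPH1, at 1.20 (SE 0.09, adjusted p = 2.75e-07). Of the members past the threshold, SERPINH1 was the 1 with a difference below 0, at -0.83 (SE 0.13, adjusted p = 0.000154). Higher in A549 and lower in H1299 were 21 members, where 7.18% of genes were, and the reverse held for 1, SERPINH1, where 5.34% of genes were. No difference passed the threshold for HSF1, at 0.23 (SE 0.23, adjusted p = 0.454), HSF2, HSPA1A, HSPA1B, HSPB1, DNAJB1 or TRAP1.

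For the small cell lines, the CRISPR-label effect in DMS454 minus that in H1694 passed the threshold for 9 of 35 members, close to the 20.2% of 15460 genes that did. It was above 0 for 7 of them, where 10.4% of genes were: SERPINH1, at 0.72 (SE 0.10, adjusted p = 0.000121), HSPA1A, at 0.60 (SE 0.18, adjusted p = 0.036), DNAJB1, at 0.50 (SE 0.08, adjusted p = 0.000468), CHORDC1, AHSA1, HSPA8 and DNAJA1. DNAJB4, at -0.33, and HSF2, at -0.30, were below 0. HSPB8 and DNAJB4 were lower in CRISPR-labelled libraries of both lines, where 1.28% of genes were, and SERPINH1 and AHSA1 were higher in DMS454 and lower in H1694, where 1.06% were. Without DMS454 CRISPR 3, 19 members differed between these lines, where 27% of genes did, and without 1 of the other libraries between 3 and 9 did, where 15.5% to 22% of genes did. All 9 kept their sign and passed the threshold without CRISPR 3, with HSPA1A at 0.42 (adjusted p = 0.00393) and CHORDC1 at 0.26 (adjusted p = 0.0112). As CRISPR 3 was set apart by the members' own values, this is descriptive and gives no independent support. With all libraries, CHORDC1 (adjusted p = 0.0408) and HSPA8 (adjusted p = 0.0482) were only just under the threshold.

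The level per kilobase of exon ranked HSP90AA1 and HSP90AB1 as the highest members in the controls of every line. In A549 controls HSP90AB1 was first with 11248 ± 446 normalized counts per kilobase and HSP90AA1 second with 6655 ± 306, clear of HSPA8 with 4231 ± 84.0 (SD, n = 3). HSPA8, HSPB1 (4086 ± 82.5) and HSPD1 (4077 ± 205) did not differ beyond their spread there. In H1299 controls HSP90AA1 (25627 ± 2457) and HSP90AB1 (24932 ± 2064) were within their spread of each other and above HSPA8 (10621 ± 1235). In the control-labelled libraries of DMS454 the order was HSP90AB1 (12841 ± 25.1), HSP90AA1 (8110 ± 162) and HSPD1 (5291 ± 65.5). In those of H1694 it was HSP90AA1 (27164 ± 430), HSP90AB1 (9782 ± 155) and HSPA8 (6218 ± 127). SERPINH1, BAG2, BAG3, HSPA4L and CRYAB lay near the low end in 1 or more lines. The tables were normalized separately for each line, so levels are ordered here within a line only.

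**Figure D4:**
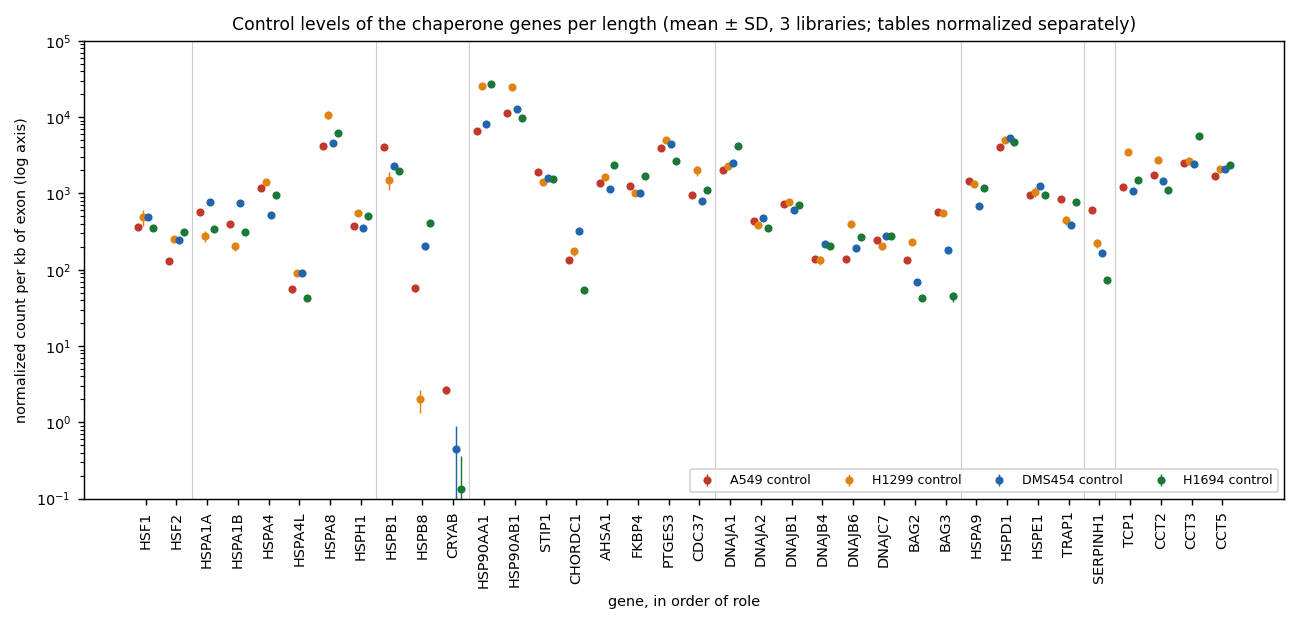
Level of each member in the controls of each line, in normalized counts per kilobase of exon on a log axis, with the mean and SD of 3 libraries. HSP90AA1 and HSP90AB1 are at the top in every line, and CRYAB is at the bottom where it was measured.

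Members with the 3-unit heat shock element in the promoter window had a median log2 fold change of 0.34 in A549, against 0.16 for the 25 tested members with a matched promoter and no such element. In H1299 the medians were -0.75 for the 8 with the element and -0.40 for the 24 without it. SERPINH1, whose printed promoter holds the element, was the 1 member of the 8 that went the other way in each line. In DMS454 the medians were 0.09 and 0.02, and in H1694 -0.08 and -0.03. These are descriptions of few genes, and no test was made of them.

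Other genes of the folding system, listed by role, did not all share these directions. Of 20 chaperones of the endoplasmic reticulum, 17 fell in A549 (85%, against 21.9% of all genes) and the other 3 did not pass the threshold, with a median log2 fold change of -0.21. DNAJB9, a J-domain partner of the ER HSP70, had 237, 217 and 231 in the OE libraries, against 345, 359.9 and 336 in the controls (log2 fold change -0.60, SE 0.09, adjusted p = 8.59e-08), and PDIA4, a disulfide isomerase, 7205, 7185 and 7308 in the OE libraries, against 9789, 9690.3 and 9181 in the controls (log2 fold change -0.40, SE 0.04, adjusted p = 2.47e-13). In H1299, 2 of the 20 rose, CALR by 0.29 and ERP44 by 0.26, a share below the 13.5% of all genes that were higher. In DMS454, 3 rose and 1 fell, against 9.15% and 9.72% of all genes, and in H1694, 1 rose and 3 fell, against 8.73% and 8.9%, with HYOU1 at 0.27 in DMS454 and PDIA6 at 0.24 in H1694.

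The remaining TRiC and prefoldin genes, 16 in all with the tubulin cofactors, rose for 3 and fell for 1 in A549, both shares below the 22.5% and 21.9% of all genes. In H1299, 10 of them fell, against 15.3% of all genes, among them PFDN1, at -0.56, and CCT8, at -0.52. TBCD, a tubulin cofactor, rose by 0.37 in A549. Of the other cytosolic chaperones, 7 rose and 5 fell of 34 tested in A549, again below those shares, and 7 of 34 fell in H1299 (20.6%, close to the 15.3% of all genes), led by DNAJC2, a ribosome-associated J-domain protein, at -0.73. HSF4, a further heat shock factor, and HSPA2, an HSP70 gene, fell in A549, by 0.51 and 0.32. Of 13 tested genes of mitochondrial protein quality control, 6 fell in H1299 (46.2%, against 15.3% of all genes), led by GRPEL1, the nucleotide exchange factor of HSPA9, with 1557, 1360.3 and 1487 in the OE libraries, against 2559, 2773 and 2974 in the controls (log2 fold change -0.91, SE 0.09, adjusted p = 0.000226). HTRA2, a mitochondrial protease, rose in A549 and DMS454, by 0.61 and 0.54.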

How the data were processed

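Total RNA of 24 libraries was sequenced from strand-specific libraries, per the labels' protocols. Reads were trimmed with Trim Galore, aligned with STAR to hg38 and analysed with DESeq2, per the submitters' processing notes. Versions, and the counter with its strand setting and annotation, were not given in the sources used here. What the authors deposited for each library is a signal: counts over a size factor. Whole reads were recovered for 100% of values within 0.01. The authors' deposited log2 fold changes, p-values and Wald score were not used for any result.

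Groups were taken from sample titles, and library codes were matched through the labels. Gene names, exon lengths and GC content came from GENCODE 29, which held 96.5% to 98.3% of identifiers. The members and lists were chosen with earlier results of these data known.

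Each line was fitted alone with limma 3.58.1 under R 4.3.3, using its trend and robust options, on log2(value + 1) of genes whose mean reached 10 in at least 1 group. P-values were adjusted over all tested genes by the Benjamini-Hochberg method, and the threshold was 0.05. Fold changes on this scale understate changes of low genes. Differences between lines came from 1 limma fit of both lines. Because the tables hold normalized values, limma was the test. The recovered reads were also tested with DESeq2 1.42.0, edgeR 4.0.16 and limma-voom, and scaling, filter, pseudocount, GC correction, replicate block and left-out libraries were varied. The scripts were tested on simulated data. Values in every library are given for up to 6 members per line with the largest change among those past the threshold without overlap of the groups and with a mean of at least 50, and for 8 members named in the rule (HSF1, HSF2, HSPA1A, HSPA1B, HSPA8, HSP90AA1, DNAJB1 and HSPH1). Of each other chaperone list, up to 2 genes per line with the largest called change could be named. COL1A1 was named after its values were seen to dominate the fibroblast markers.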

Additional observations from a re-analysis of the deposited data

Results flagged for a closer look

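For 27 of 34 members, the response to HEPACAM2 overexpression differed between A549 and H1299 by a direct test of the difference (limma, adjusted p under 0.05). The same held for 41.2% of 14578 genes. All values are A549 minus H1299 on the log2 scale. Among the HSP70 and HSP110 genes, the difference was 1.31 for HSPA8, 1.20 for HSPH1, 0.85 for HSPA4 and 0.83 for HSPA4L. For HSP90 and its partners, the difference was 1.80 for CHORDC1, 1.24 for HSP90AA1, 0.95 for HSP90AB1, 0.78 for FKBP4, 0.68 for CDC37, 0.51 for AHSA1, 0.48 for PTGES3 and 0.47 for STIP1. Among the J-domain and BAG genes, the difference was 0.98 for DNAJA1, 0.88 for BAG2, 0.77 for DNAJB6, 0.70 for DNAJB4, 0.65 for DNAJA2, 0.52 for BAG3 and 0.47 for DNAJC7. For the mitochondrial chaperones, the difference was 1.09 for HSPD1, 0.996 for HSPE1 and 0.77 for HSPA9. Among the TRiC subunits, the difference was 1.05 for CCT2, 0.92 for TCP1, 0.65 for CCT5 and 0.51 for CCT3. SERPINH1, the collagen chaperone, went the other way, at -0.83.

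For 9 of 35 members, close to the 20.2% of 15460 genes, the effect of the CRISPR label differed between DMS454 and H1694 by the same kind of test. The difference is given as DMS454 minus H1694. It was above 0 at 0.72 for SERPINH1, 0.60 for HSPA1A, 0.50 for DNAJB1, 0.41 for CHORDC1, 0.35 for AHSA1, 0.25 for HSPA8 and 0.22 for DNAJA1. It was below 0 at -0.30 for HSF2 and -0.33 for DNAJB4. In both small cell lines HEPACAM2 mRNA goes against the label, and its part in these differences was not tested. Library CRISPR 3 of DMS454 stood apart from CRISPR 1 and 2, and without it 19 members differed, where 27% of genes did. The differences were then 0.68 for SERPINH1, 0.42 for HSPA1A, 0.46 for DNAJB1, 0.26 for CHORDC1, 0.34 for AHSA1, 0.16 for HSPA8, 0.15 for DNAJA1, -0.31 for HSF2 and -0.42 for DNAJB4, all past the threshold. CRISPR 3 was set apart by the members' own values, so these differences are descriptive and give no independent support.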

How the results depend on the processing

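Alternatives to the limma settings were counted only for the members picked for values in every library, and left most of those values where they were. These members were picked for large called changes or by name, and values that stayed short of the threshold also count as kept. In A549, 156 of 165 such values kept their direction and side of the threshold, and 9 lost the threshold. The same held for 180 of 192 values in H1299, 195 of 210 in DMS454 and 152 of 165 in H1694. Over all members, the H1694 calls of AHSA1, DNAJA1, DNAJB4, HSPA1B, HSPA8, HSPA9, HSPB1 and HSPH1 were lost without at least 1 single library. In H1299 the count of higher members was 1 with all libraries (13.5% of genes) and 0 with a replicate block (4.98%). It was 2 after GC correction (20.1% of genes) and 5 without both libraries numbered 1 (27%). Without any 1 library it was 0 to 2 (7.71% to 16%). The median of the members was -0.50 after GC correction. Without both libraries numbered 1, HSF1 was at 0.27, HSPA1A at 0.22 and HSPA1B at 0.17 on the log2 scale, all reversed. Without any 1 library these ranged from -0.211 to 0.0882 for HSF1, -0.118 to 0.0986 for HSPA1A and -0.194 to 0.0667 for HSPA1B. In DMS454, 1 member was lower with no filter on low values, for which the share of genes is not given here. The count was 1 to 13 without any 1 library, where 5.37% to 18.2% of genes were lower. DNAJB1 then ranged from -0.0257 to 0.055 and HSP90AA1 from -0.031 to 0.0771. In H1694, without any 1 library, 1 to 2 members were higher and 5 to 12 lower, with medians from -0.0414 to -0.0087. Over all genes, 5.16% to 12.6% were then higher and 5.05% to 12.6% lower. DESeq2 called 8 of the 12 lower members there, where it called 6.51% of genes lower. The DMS454 minus H1694 difference passed for 4 members with no filter, for which the share of genes is not given here. It passed for 3 to 19 without any 1 library, where 15.5% to 27% of genes did. For these results the cause was not tested.

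Replicate numbers are shared between groups, but the deviations of same-numbered libraries correlated at -0.54, -0.31 and -0.18 in H1299 and between -0.09 and 0.12 in the other lines, so the numbers do not pair the samples. On the recovered reads, edgeR called 7523 genes in A549, 4666 in H1299, 3513 in DMS454 and 3345 in H1694, with the same member counts in each direction as limma. With the replicate number as a block in limma, 19 of the 25 member calls in H1299 were kept. All 19 were lower, where 5.11% of genes were. The calls of SERPINH1 (adjusted p = 0.0992), STIP1 (0.0801), PTGES3 (0.119), DNAJB4 (0.111), DNAJC7 (0.146) and CCT3 (0.0995) were lost there. With 3 libraries per group, small changes cannot be told from the spread between libraries.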
